A study of Homo sapiens with 3 samples.

Results

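The unfolded protein response and the ATF4 amino acid response were read in NCI-H209 cells, a long-established line of human small cell lung cancer, after silencing of YES1, a Src-family tyrosine kinase. Both programmes were represented by a fixed list of 45 genes, and all 45 were found by symbol among the 60609 genes of the count tables. The members were 4 stress sensors, 7 transcription factors, 15 genes of folding and degradation in the endoplasmic reticulum (ER), 8 genes of amino acid synthesis, 4 amino acid transporters and 7 stress effectors. There were 3 libraries of polyadenylated RNA: sh1362 and sh490, named after their 2 hairpins against YES1, and the control shGFP, whose hairpin targets green fluorescent protein. All 3 carried a doxycycline-inducible lentiviral hairpin plasmid with a puromycin resistance gene, and all were given doxycycline at 1 µg/mL at intervals of 2 days. Neither the time from induction to harvest nor the hairpin sequences nor the number of separate infections is given in the sources used here.

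There was 1 library per hairpin, so a difference between 2 libraries has no replicate check, and intervals for such differences are 95% counting intervals. They cover counting error only, since the reads carry no molecular identifiers and are not independent molecules. Total counts were 7421552 in sh1362, 7791747 in sh490 and 4899006 in shGFP, and counts of single members ran from 36 to 17703. YES1 itself was at 29.2 CPM (counts relative to the TMM-scaled total) in sh1362 and 20.6 CPM in sh490, against 302.8 CPM in shGFP. The neuroendocrine markers INSM1, CHGA, SYP, NCAM1 and DLL3 were detected in every library. INSM1 was at 368 CPM in sh1362, 199 in sh490 and 109 in shGFP, and NCAM1 at 268, 134 and 145 CPM in the same order. In that order SYP was at 208, 169 and 195 CPM, CHGA at 40.8, 25.1 and 28.1 CPM and DLL3 at 32.1, 33.4 and 29.4 CPM. All of these but DLL3 were highest in sh1362. Mitochondrial transcripts took 7.78% of the counts in sh1362, 5.50% in sh490 and 5.47% in shGFP. The 3 globin markers of red cells (HBB, HBA1 and HBA2) summed to 20.3 CPM in sh1362, 18.5 in sh490 and 731.8 in shGFP, so shGFP stands apart from both other libraries there. Summed levels of the 4 white cell markers (PTPRC, S100A8, S100A9 and LYZ) were 1.62, 0.252 and 6.20 CPM in sh1362, sh490 and shGFP, with S100A8 and S100A9 at 0 in sh1362 and PTPRC and S100A8 at 0 in sh490. In shGFP the white cell sum was mostly S100A9, at 4.13 CPM on 20 counts, with S100A8 at 1.03 CPM. PTPRC was nearly alike in sh1362 and shGFP (0.406 and 0.413 CPM). LYZ was highest in sh1362, at 1.22 CPM against 0.620 in shGFP. The mitochondrial share, INSM1, CHGA, SYP and NCAM1 were thus highest in sh1362, and the globin levels set shGFP apart. The part of these differences in the results below was not tested.

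The ER folds secreted and membrane proteins, and 3 sensors in its membrane report unfolded protein. ERN1 (IRE1) splices the XBP1 messenger, ATF6 is cut to release a transcription factor, and both lead to transcription of chaperones and of genes for ER-associated degradation. EIF2AK3 (PERK) phosphorylates the translation factor eIF2, as does EIF2AK4 (GCN2) when amino acids run short, and this favours translation of ATF4, which drives genes for amino acid synthesis and uptake. Gene counts report neither XBP1 splicing, nor ATF6 cleavage, nor ATF4 translation, so only the RNA levels of the sensors, factors and targets could be read.

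ER genes and ATF4 genes are known for different promoter elements. The sequences of 6 members are shown, picked from those with a match, so they do not stand for their roles. XBP1 is a transcription factor and CHAC1 a stress effector in the division used here. The letters searched were the ER stress element ERSE (CCAAT, 9 free bases, CCACG), ERSE-II (ATTGG, 1 free base, CCACG), the unfolded protein response element UPRE (TGACGTGG) and the CARE or amino acid response element (TGATG, 1 free base, AA), on both strands. Each line gives 220 bases 5′ to 3′ ending just before the RefSeq start (GRCh38.p14), with matches in capitals. The HSPA5 stretch is chr9:125241344-125241563, minus strand, the HSP90B1 stretch is chr12:103930190-103930409, plus strand, and the XBP1 stretch is chr22:28800570-28800789, minus strand. The HYOU1 stretch is chr11:119057206-119057425, minus strand, the ASNS stretch is chr7:97872409-97872628, minus strand, and the CHAC1 stretch is chr15:40953251-40953470, plus strand. HSPA5 and XBP1 hold 1 ERSE each and HSP90B1 holds 2, 1 on each strand. HYOU1 holds 2 ERSE-II on the minus strand, of which the upstream one overlaps a UPRE, so the pair forms a single run of capitals. ASNS holds 1 CARE, and CHAC1 holds 1 on the minus strand of the gene.
HSPA5: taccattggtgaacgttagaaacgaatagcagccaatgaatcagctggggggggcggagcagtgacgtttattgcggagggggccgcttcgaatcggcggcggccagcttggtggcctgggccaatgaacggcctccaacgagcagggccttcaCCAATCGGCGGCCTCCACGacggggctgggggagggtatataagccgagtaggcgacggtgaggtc
HSP90B1: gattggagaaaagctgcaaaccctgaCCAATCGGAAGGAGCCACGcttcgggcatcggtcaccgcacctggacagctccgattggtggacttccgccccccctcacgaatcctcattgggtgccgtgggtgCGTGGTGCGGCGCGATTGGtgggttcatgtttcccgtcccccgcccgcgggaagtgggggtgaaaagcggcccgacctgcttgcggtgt
XBP1: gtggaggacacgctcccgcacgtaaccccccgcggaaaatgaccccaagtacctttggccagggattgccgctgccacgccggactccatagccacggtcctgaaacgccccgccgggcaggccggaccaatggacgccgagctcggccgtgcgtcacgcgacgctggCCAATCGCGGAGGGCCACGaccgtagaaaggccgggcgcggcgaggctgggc
HYOU1: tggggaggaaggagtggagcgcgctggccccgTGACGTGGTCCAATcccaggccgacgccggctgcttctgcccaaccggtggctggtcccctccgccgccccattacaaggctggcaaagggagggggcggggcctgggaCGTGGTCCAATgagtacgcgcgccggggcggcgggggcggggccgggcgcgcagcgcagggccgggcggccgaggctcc
ASNS: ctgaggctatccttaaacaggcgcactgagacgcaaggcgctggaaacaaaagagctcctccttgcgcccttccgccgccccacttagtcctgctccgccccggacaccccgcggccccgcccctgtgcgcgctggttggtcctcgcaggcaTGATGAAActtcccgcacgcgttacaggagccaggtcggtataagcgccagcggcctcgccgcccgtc
CHAC1: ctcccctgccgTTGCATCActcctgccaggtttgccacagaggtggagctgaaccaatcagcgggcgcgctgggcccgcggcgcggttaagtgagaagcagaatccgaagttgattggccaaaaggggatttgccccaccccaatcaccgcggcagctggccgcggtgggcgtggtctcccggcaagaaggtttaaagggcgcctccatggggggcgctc

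RefSeq promoter windows, from 250 bases before to 50 bases after a start, were matched for 42 of the 45 members; PSPH, PYCR1 and SHMT2 had none. Any of the 3 ER elements stood in the windows of 7 of the 15 ER genes (46.7%), against 1.08% of 27305 genes in the table. Those 7 were HSPA5, HSP90B1, CRELD2 and PDIA6 with ERSE, HERPUD1 and SDF2L1 with ERSE-II, and HYOU1 with ERSE-II and UPRE. Outside the ER genes, 2 of 27 members held one, XBP1 an ERSE and ALDH18A1 a UPRE. Over all genes, the share with a match was 0.0916% for ERSE, 0.0696% for ERSE-II, 0.927% for UPRE and 4.46% for CARE. CARE letters stood in 6 of 42 members: ASNS, ATF3, CEBPG, CHAC1, HERPUD1 and SLC1A5. Among the amino acid genes they stood in 2 of the 9 with a window (22.2%). HERPUD1, a membrane protein of ER-associated degradation, was the single member with both kinds of element. A match describes letters in a window and does not show that a factor binds there. Because ER genes and ATF4 genes are known for these elements, the higher shares describe the lists and are no result of these libraries.

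With both hairpins taken as 1 group against shGFP, none of the 45 members was called. All 45 entered edgeR's quasi-likelihood test, and 0 passed at a Benjamini-Hochberg adjusted p of 0.05, against 0.0255% of the 15708 genes tested. The lowest adjusted p of any member was 0.986 in that edgeR test, and 3 members lay under an unadjusted p of 0.05, which is 6.67% of the members against a background of 4.35%. DESeq2 and limma-voom also called 0 members, with 1 and 2 under an unadjusted p of 0.05. The labels do not say that sh1362 and sh490 came from separate cultures, so these p-values measure only the spread between the libraries, and the test rests on 1 residual degree of freedom. That degree of freedom is the difference between sh1362 and sh490, so a gene on which the hairpins differ is less likely to be called. The 3 members under 0.05 in edgeR were the glycine transporter SLC6A9, higher at a log2 fold of 1.38 (SE 0.42, unadjusted p = 0.0113), EDEM1, higher at 0.96 (SE 0.41, unadjusted p = 0.0456), and ASNS, lower at -0.87 (SE 0.36, unadjusted p = 0.0415). The ASNS value leaves out reads over 96.1% of its coding bases, as described with the amino acid genes, and its direction is uncertain.

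Set against shGFP one hairpin at a time, most members lay a little above it in sh1362 and a little below it in sh490. In sh1362, 35 of 45 members (77.8%) were above shGFP, against 49.2% of the 11634 genes averaging at least 5 CPM, and the members' median log2 fold was 0.25, against -0.0084 for all genes. In sh490, 33 of 45 members (73.3%) were below shGFP, against 49.9% of all genes, and the median was -0.18, against 0.00098. Both comparisons use the same shGFP library, so they are not independent of each other. Log2 folds are of TMM-scaled CPM with a prior count of 2, which understates low genes, whereas ratios given as times shGFP or times sh490 are of the scaled counts without it. In bulk RNA, fewer cells expressing a gene and less RNA per cell cannot be told apart.

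Most of these differences were small. At least 2-fold above shGFP in sh1362 were 5 members (11.1%), SLC6A9, AGR2, EDEM1, SLC7A5 and MTHFD2, against a background of 3.29%, and 0 were 2-fold below, against 5.99%. In sh490, 1 member was at least 2-fold above shGFP (SLC6A9, 2.22% of members against 1.39%) and 1 was 2-fold below (AGR2, 2.22% against 1.42%). Many of the smaller differences exceeded counting error. The counting interval lay above 1 for 30 members and below 1 for 6 in sh1362 against shGFP, and above 1 for 9 and below 1 for 23 in sh490 against shGFP. Among all genes it lay above 1 for 26.8% and below 1 for 29.2% in sh1362, and above 1 for 20.9% and below 1 for 21.8% in sh490. Counting intervals narrow as counts rise, and the all-gene shares here and below were not matched to the members for level.

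**Figure D1:**
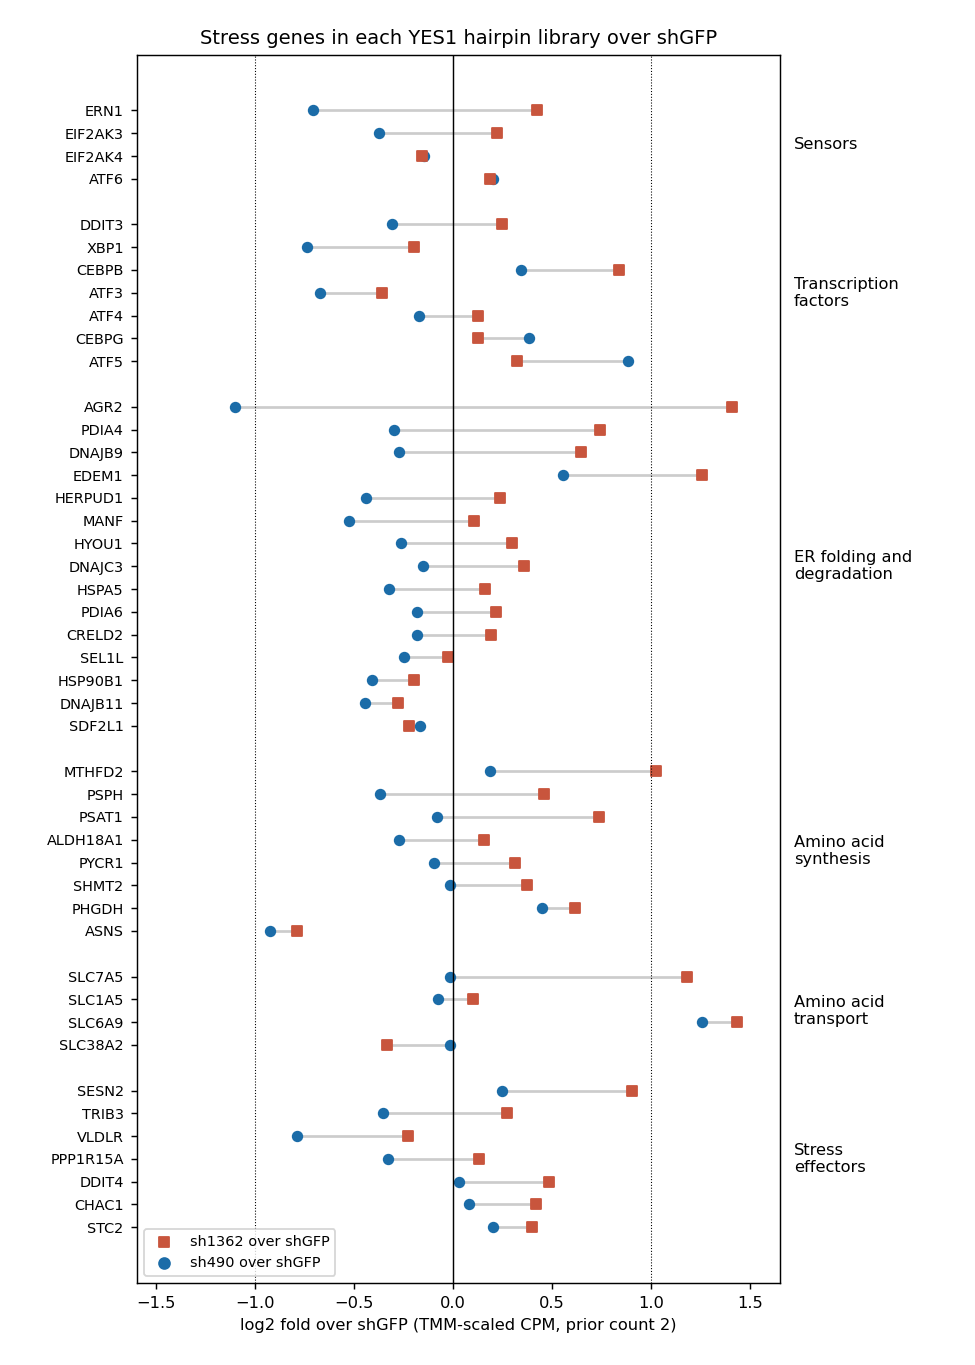
Log2 fold over shGFP of each of the 45 members, grouped by role, with sh1362 as squares and sh490 as circles, and dotted lines at 2-fold. Most squares lie right of 0 and most circles left of it; AGR2 has the widest gap, and ASNS is left of 0 in both libraries.

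The sensors differed by less than 2-fold from shGFP in either hairpin library. Their median log2 fold over shGFP was 0.20 in sh1362 and -0.26 in sh490. ERN1 (ENSG00000178607.16, chr17:64039142-64130819, minus strand in GRCh38), the IRE1 kinase and nuclease that splices XBP1, had 65.3 CPM in sh1362, 29.6 in sh490 and 48.6 in shGFP. It was highest in sh1362 and lowest in sh490, and the level in sh1362 was 2.20 (1.88 to 2.58) times that in sh490 (95% counting interval in parentheses, as in all folds below). EIF2AK3 (ENSG00000172071.14, chr2:88556741-88627464, minus strand), the PERK kinase, had 102 CPM in sh1362, 67.0 in sh490 and 87.0 in shGFP. Its order was the same as that of ERN1, with log2 folds over shGFP of 0.22 in sh1362 and -0.38 in sh490. ATF6 (ENSG00000118217.6, chr1:161766320-161964070, plus strand) had 129.99 CPM in sh1362, 131 in sh490 and 114 in shGFP. It lay slightly above shGFP in both libraries and did not separate them, with a fold of 0.990 (0.906 to 1.08) in sh1362 over sh490. EIF2AK4, the amino acid sensor GCN2, was close to shGFP in both, with log2 folds of -0.16 in sh1362 and -0.15 in sh490.

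Among the transcription factors, ATF4 messenger differed little between the libraries. ATF4 (ENSG00000128272.14, chr22:39519695-39522685, plus strand), the common factor of the amino acid response, had 3386 counts in sh1362, 2955 in sh490 and 2033 in shGFP, equal to 458 CPM in sh1362, 373 in sh490 and 420.3 in shGFP. Its level in sh1362 was 1.09 (1.03 to 1.15) times that in shGFP, and in sh490 it was 0.887 (0.838 to 0.939) times that in shGFP. The interval leaves out 1 in each comparison, yet the differences are small beside those of AGR2 in both libraries and of SLC7A5 in sh1362. XBP1 (ENSG00000100219.16, chr22:28794555-28800597, minus strand), the factor activated by splicing, had 821 CPM in sh1362, 563 in sh490 and 941 in shGFP. The control had the highest level and sh490 the lowest, at 0.873 (0.840 to 0.907) times shGFP in sh1362 and 0.598 (0.574 to 0.624) times in sh490. DDIT3 (ENSG00000175197.12, chr12:57516588-57521737, minus strand), the CHOP factor induced under prolonged stress, had 107 CPM in sh1362, 73.0 in sh490 and 90.5 in shGFP. That places it highest in sh1362 and lowest in sh490, with log2 folds over shGFP of 0.25 and -0.31. Of the coding bases of DDIT3, 33.5% are also covered by exons of another gene, so part of its reads were not counted.

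The remaining factors did not follow 1 order. ATF5 (ENSG00000169136.11, chr19:49928702-49933935, plus strand), a relative of ATF4, had 96 counts in sh1362, 153 in sh490 and 50 in shGFP. The sh490 library was highest, at 1.87 (1.35 to 2.62) times shGFP, and at 1.26 (0.884 to 1.81) times in sh1362. CEBPB (ENSG00000172216.6, chr20:50190830-50192668, plus strand), a basic leucine zipper partner of ATF4, had 231 counts in sh1362, 175 in sh490 and 84 in shGFP. It was above shGFP in both libraries, at 1.80 (1.40 to 2.34) times in sh1362 and 1.27 (0.974 to 1.67) times in sh490. CEBPG, another such partner, had log2 folds of 0.12 in sh1362 and 0.38 in sh490, and ATF3, a repressor induced by ATF4, had -0.36 and -0.67. Over the 7 factors the median log2 fold over shGFP was 0.13 in sh1362 and -0.17 in sh490, and their summed levels were 1826 CPM in sh1362, 1470.3 CPM in sh490 and 1889 CPM in shGFP.

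The 15 ER folding and degradation genes lay mostly above shGFP in sh1362 and nearly all below it in sh490. In sh490, 14 of 15 lay below shGFP, with a median log2 fold of -0.28; EDEM1 was the exception. In sh1362, 11 of 15 lay above shGFP, with a median of 0.22, and SEL1L, HSP90B1, DNAJB11 and SDF2L1 lay below. In sh490 the counting interval lay below 1 for 11 of 15 (73.3%, against 21.8% of all genes) and above 1 for 1 (6.67%, against 20.9%). In sh1362 it lay above 1 for 9 (60.0%, against 26.8%) and below 1 for 2 (13.3%, against 29.2%). Their summed level was 6446 CPM in sh1362, 4792 CPM in sh490 and 6080.1 CPM in shGFP, a sum dominated by HSP90B1 and HSPA5.

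HSPA5 (ENSG00000044574.8, chr9:125234853-125241343, minus strand), the chaperone BiP that also holds the sensors inactive, had 9379 counts in sh1362, 7204 in sh490 and 5506 in shGFP, equal to 1269.9 CPM in sh1362, 908 in sh490 and 1138 in shGFP. It was highest in sh1362 and lowest in sh490, at 1.12 (1.08 to 1.15) times shGFP in sh1362 and 0.798 (0.771 to 0.827) times in sh490. AGR2 (ENSG00000106541.12, chr7:16791811-16833433, minus strand), a disulphide isomerase of secretory cells, had 222 counts in sh1362, 40 in sh490 and 54 in shGFP. Here the 3 libraries were far apart, at 2.69 (1.99 to 3.70) times shGFP in sh1362 and 0.452 (0.293 to 0.693) times in sh490, although the counts are among the lowest of the members. PDIA4 (ENSG00000155660.11, chr7:149003062-149028662, minus strand), another disulphide isomerase, had 688 CPM in sh1362, 335 in sh490 and 411 in shGFP. The sh1362 library stood above the other two, at 1.67 (1.59 to 1.76) times shGFP, while sh490 was at 0.813 (0.767 to 0.862) times. EDEM1 (ENSG00000134109.11, chr3:5187646-5219958, plus strand), which directs misfolded glycoproteins to degradation, had 350 counts in sh1362, 230 in sh490 and 95 in shGFP. It was the single ER gene above shGFP in both libraries, at 2.41 (1.92 to 3.06) times in sh1362 and 1.48 (1.16 to 1.90) times in sh490.

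The other 11 ER genes lay within 2-fold of shGFP in either library. The largest of these was DNAJB9, a J-domain co-chaperone, with log2 folds over shGFP of 0.65 in sh1362 and -0.28 in sh490. MANF, a secreted ER stress protein, had 0.11 and -0.52, and HERPUD1 had 0.24 and -0.44, both reading sh1362 and then sh490. HYOU1, the large ER chaperone, had 0.30 in sh1362 and -0.26 in sh490, DNAJC3, an inhibitor of PERK, had 0.36 and -0.15, and PDIA6 had 0.22 and -0.18. HSP90B1, the ER paralogue of HSP90, was below shGFP in both, at -0.20 in sh1362 and -0.41 in sh490. The same held for DNAJB11 at -0.28 and -0.45, for SDF2L1 at -0.22 and -0.17, and for SEL1L, the scaffold of the HRD1 ligase, at -0.029 and -0.25. CRELD2 had 0.19 and -0.18. Among these 11, the counting interval of the fold over shGFP included 1 for SDF2L1 and CRELD2 in both libraries. The same applied to SEL1L and MANF in sh1362 and to DNAJC3 in sh490. The 7 ER genes with an ER element in the promoter window had medians of 0.19 in sh1362 and -0.26 in sh490, and the 8 without one had 0.50 and -0.29; these lists are described only and the difference was not tested.

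**Figure D2:**
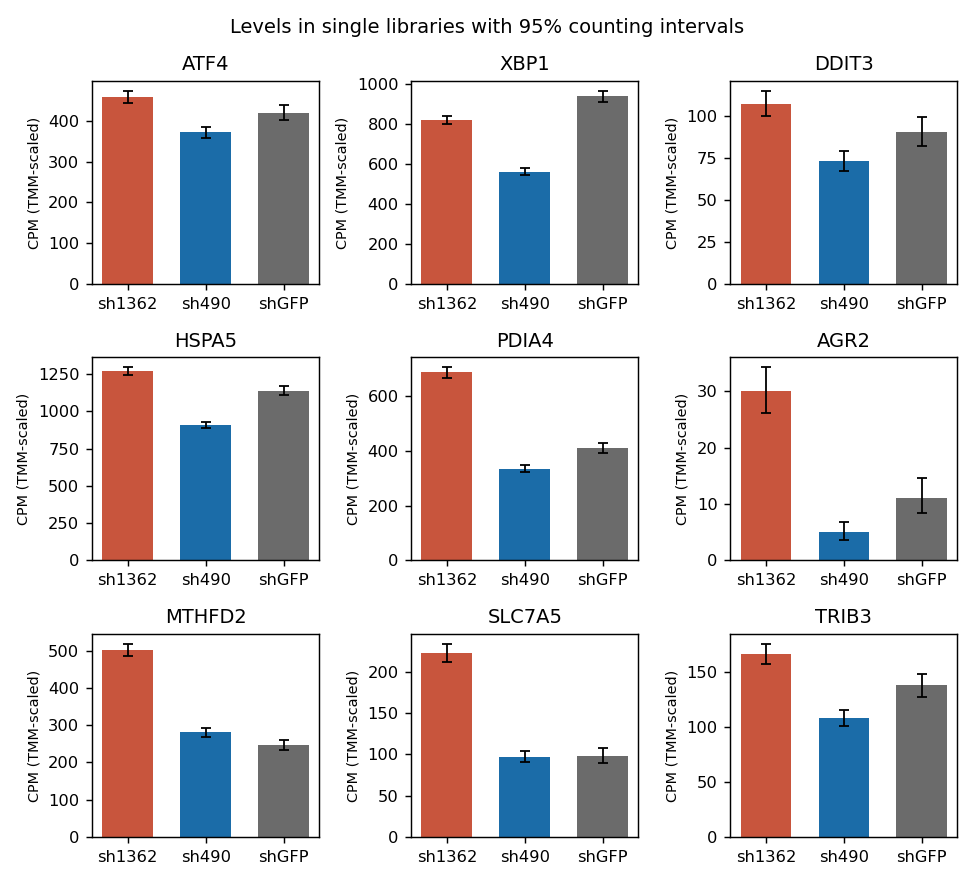
CPM of 9 members in the single libraries sh1362, sh490 and shGFP, with exact 95% counting intervals as error bars and a vertical axis from 0 in each panel. The sh1362 bar is highest in every panel but XBP1, which is highest in shGFP. Relative to shGFP, the sh1362 bar stands furthest above in PDIA4, AGR2, MTHFD2 and SLC7A5.

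The amino acid genes lay mostly above shGFP in sh1362 and had a median close to it in sh490. Of the 12 synthesis and transport genes, 10 were above shGFP in sh1362 with a median log2 fold of 0.41, and 9 were below it in sh490 with a median of -0.048. The counting interval lay above 1 for 9 and below 1 for 2 in sh1362, and above 1 for 3 and below 1 for 3 in sh490. The ER median minus the amino acid median was -0.20 in sh1362 and -0.23 in sh490, on the log2 scale. The genes of the 2 lists overlapped widely: in sh1362 the ER log2 folds ran from -0.28 to 1.41 and the amino acid ones from -0.79 to 1.43, and in sh490 from -1.10 to 0.56 and from -0.93 to 1.25. The difference between the lists was not tested.

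Synthesis genes summed to 1782 CPM in sh1362, 1196 CPM in sh490 and 1200.2 CPM in shGFP. MTHFD2 (ENSG00000065911.12, chr2:74198610-74217565, plus strand), a mitochondrial folate enzyme, had 502 CPM in sh1362, 281 in sh490 and 247 in shGFP. The sh1362 level was 2.03 (1.91 to 2.17) times that in shGFP and the sh490 level 1.14 (1.06 to 1.22) times. PSPH (ENSG00000146733.14, chr7:56011051-56051604, minus strand), the last enzyme of serine synthesis, had 78.4 CPM in sh1362, 44.1 in sh490 and 57.1 in shGFP. The sh1362 library was highest, at 1.37 (1.19 to 1.59) times shGFP, and sh490 was lowest, at 0.774 (0.659 to 0.909) times. The other enzymes of serine synthesis are PHGDH and PSAT1: log2 folds over shGFP were 0.73 in sh1362 and -0.084 in sh490 for PSAT1, and 0.61 and 0.45 for PHGDH. SHMT2, which makes glycine from serine in mitochondria, had 0.37 in sh1362 and -0.015 in sh490, and the proline enzymes ALDH18A1 and PYCR1 had 0.16 and 0.31 in sh1362, and -0.27 and -0.097 in sh490.

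ASNS (ENSG00000070669.17, chr7:97851677-97872542, minus strand), asparagine synthetase and a standard readout of ATF4, had 107 counts in sh1362, 104 in sh490 and 122 in shGFP. It was lower than shGFP in both hairpin libraries, at 0.574 (0.439 to 0.751) times in sh1362 and 0.520 (0.396 to 0.681) times in sh490, unlike most amino acid genes in sh1362. This value does not cover most of the messenger. Of the coding bases of ASNS, 96.1% (1683 of 1752) are also covered by the exons of a second annotated gene, ENSG00000284707, and reads overlapping 2 genes were left out by the counting defaults. That gene had 5 counts in sh1362, 0 in sh490 and 6 in shGFP. The annotated copy ASNSP1 had 456 counts in sh1362, 286 in sh490 and 166 in shGFP, more than ASNS itself, with log2 folds over shGFP of 0.84 and 0.07. The level and direction of ASNS are therefore uncertain. The share of coding bases covered by another gene was also above 20% in DNAJB11, DDIT4, DDIT3, VLDLR (29.6%), EDEM1 (25.5%), EIF2AK3 (22.8%) and CEBPB (22.3%), where reads of the shared bases were likewise left out in all 3 libraries.

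**Figure D3:**
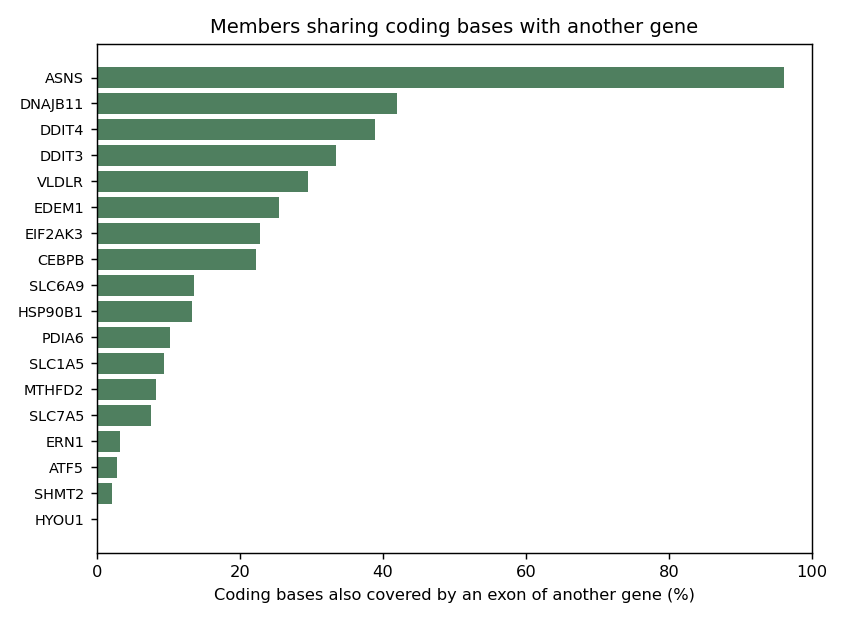
Share of each member's coding bases (GENCODE 29 coding regions) that exons of another annotated gene also cover, in percent, for the 18 members with any such base. ASNS stands at 96.1%, and the next are DNAJB11 at 42.0% and DDIT4 at 38.9%.

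The 4 transporters differed among themselves. SLC6A9 (ENSG00000196517.11, chr1:43991500-44031467, minus strand), the glycine transporter, had 152 counts in sh1362, 144 in sh490 and 36 in shGFP. It was the one member at least 2-fold above shGFP in both libraries, at 2.77 (1.91 to 4.10) times in sh1362 and 2.44 (1.68 to 3.62) times in sh490, but its count in shGFP was the lowest count of any member. SLC7A5 (ENSG00000103257.9, chr16:87830023-87869507, minus strand), the large neutral amino acid transporter LAT1, had 223 CPM in sh1362, 97.2 in sh490 and 98.4 in shGFP. Only the sh1362 library was high, at 2.27 (2.05 to 2.51) times shGFP, against 0.988 (0.880 to 1.11) times in sh490. SLC38A2 (ENSG00000134294.14, chr12:46358188-46372773, minus strand), a sodium-coupled transporter of small neutral amino acids, had 732 CPM in sh1362, 913 in sh490 and 924 in shGFP. It was lowest in sh1362, at 0.792 (0.761 to 0.824) times shGFP, and in sh490 its interval included 1, at 0.988 (0.952 to 1.03) times. SLC1A5, the glutamine transporter ASCT2, stayed near shGFP, with log2 folds of 0.099 in sh1362 and -0.079 in sh490.

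The stress effectors were mostly above shGFP in sh1362, with a median log2 fold of 0.40, and were split in sh490, with a median of 0.028. TRIB3 (ENSG00000101255.11, chr20:362835-397559, plus strand), a pseudokinase induced by ATF4 and CHOP, had 167 CPM in sh1362, 108 in sh490 and 138 in shGFP. It was highest in sh1362 and lowest in sh490, at 1.21 (1.10 to 1.33) and 0.783 (0.707 to 0.867) times shGFP. SESN2 (ENSG00000130766.5, chr1:28259518-28282491, plus strand), a leucine-binding inhibitor of mTORC1 signalling, had 104 CPM in sh1362, 65.7 in sh490 and 55.4 in shGFP. It was above shGFP in both libraries, at 1.87 (1.63 to 2.16) times in sh1362 and 1.19 (1.02 to 1.38) times in sh490. VLDLR (ENSG00000147852.16, chr9:2621787-2660056, plus strand), a lipoprotein receptor, had 100 counts in sh1362, 72 in sh490 and 77 in shGFP. The control was highest, with levels at 0.851 (0.626 to 1.16) times shGFP in sh1362, where the interval includes 1, and 0.570 (0.408 to 0.797) times in sh490. PPP1R15A, the phosphatase subunit that reverses eIF2 phosphorylation, had log2 folds of 0.13 in sh1362 and -0.33 in sh490. CHAC1, a glutathione-degrading enzyme, had 0.42 and 0.077, DDIT4, an inhibitor of mTORC1, had 0.48 and 0.028, and the secreted glycoprotein STC2 had 0.40 and 0.20.

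The direct comparison of the hairpins leaves out shGFP, and it showed the members higher in sh1362. In sh1362 over sh490, 39 of 45 members (86.7%) were higher, against 48.3% of all genes, and the median log2 fold was 0.45, against -0.017. At least 2-fold higher were 4 members (8.89%, against a background of 2.02%): AGR2, SLC7A5, ERN1 and PDIA4. None was 2-fold lower, against 3.88% of all genes. The counting interval lay above 1 for 37 members and below 1 for 3, against 26.2% and 29.2% of all genes. The sensors ATF6 and EIF2AK4, the factors ATF5 and CEBPG, the ER gene SDF2L1 and the transporter SLC38A2 were the 6 members on the lower side.

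Genes of both programmes were higher in sh1362. Of the ER genes, 14 of 15 were higher in sh1362 than in sh490, with a median log2 fold of 0.51, and all 14 had intervals above 1. Of the amino acid genes, 11 of 12 were higher, with a median of 0.40, and 9 had intervals above 1. The ER median exceeded the amino acid median by 0.11, with ER log2 folds from -0.055 to 2.51 and amino acid ones from -0.32 to 1.20. AGR2 was widest, at 5.96 (4.24 to 8.57) times, on 222 counts in sh1362 and 40 in sh490; without it the ER median was 0.50. SLC7A5 was at 2.29 (2.10 to 2.50) times, PDIA4 at 2.06 (1.96 to 2.16) times and DNAJB9 at 1.90 (1.71 to 2.11) times. HSPA5 was at 1.40 (1.36 to 1.44) times, XBP1 at 1.46 (1.40 to 1.52) times and DDIT3 at 1.47 (1.32 to 1.64) times. Among the amino acid genes, MTHFD2 was at 1.79 (1.70 to 1.89) times, PSAT1 at 1.76 (1.651 to 1.89) times and PSPH at 1.78 (1.55 to 2.03) times. ATF4 itself was at 1.23 (1.17 to 1.29) times, less than most of these. Over 8 bins of all genes by mean CPM, the bin median log2 fold of sh1362 over sh490 ran from -0.058 to 0.014. The globin sum was nearly alike in these libraries (20.3 CPM in sh1362 and 18.5 in sh490), while the mitochondrial share was not (7.78% and 5.50%). Each library stands for 1 hairpin, so hairpin, culture and library cannot be told apart.

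**Figure D4:**
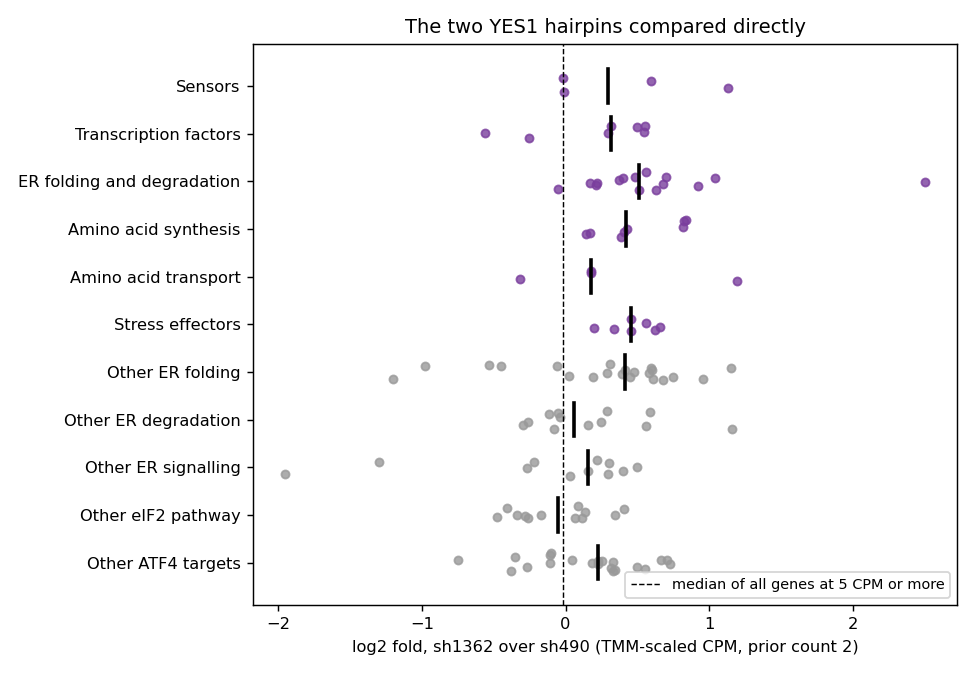
Log2 fold of sh1362 over sh490 for members (purple) and for other genes of the same pathways (grey), by role; each point is a gene, black bars are medians and the dashed line is the median of all genes. The member medians lie between 0.18 and 0.51, and the eIF2 pathway genes centre near the dashed line.

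Other genes of the same pathways were read from a list of 85 genes, of which 77 averaged at least 5 CPM. In edgeR's quasi-likelihood test with Benjamini-Hochberg adjustment 0 of the 77 were called, and 6 lay under an unadjusted p of 0.05 (7.79%, against 4.35% of all genes), of which 3 were higher. DESeq2 and limma-voom called 0 of them, with 1 and 5 under an unadjusted p of 0.05. The 21 other genes of ER folding had median log2 folds over shGFP of 0.13 in sh1362 and -0.25 in sh490, and a median of 0.41 in sh1362 over sh490, with 16 of 21 higher in sh1362. The 12 other genes of ER degradation had 0.16 in sh1362, 0.033 in sh490 and 0.058 between the hairpins. The 12 genes of eIF2 and its regulators were near 0 throughout, at -0.0021 in sh1362, -0.013 in sh490 and -0.054 between the hairpins. The 21 other ATF4 targets had 0.33 in sh1362, -0.0077 in sh490 and 0.23 between the hairpins. Of all 27 listed other ATF4 targets, whatever their level, 19 had a promoter window. Among those 19, 8 held CARE letters (42.1%, against 4.46% of all genes). The 11 other genes of ER stress signalling had 0.13, 0.024 and 0.15 in the same order.

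Of these 77 genes, 2 were at least 2-fold higher in sh1362 than in sh490 (2.597%, against 2.02% of all genes) and 3 were 2-fold lower (3.90%, against 3.88%), shares close to those of all genes. HSPA13, an ER-associated HSP70 relative, had 133 CPM in sh1362, 59.5 in sh490 and 129 in shGFP, so sh490 was the low library. EDEM2, a mannosidase of ER-associated degradation, had 55.2 CPM in sh1362, 24.6 in sh490 and 39.5 in shGFP, with sh490 again lowest. ERO1A, the oxidase that recharges disulphide isomerases, had 41.0 CPM in sh1362, 94.8 in sh490 and 119 in shGFP, and here sh1362 was lowest. The same was true of MBTPS2, the protease that cleaves ATF6 in the membrane, with 25.2 CPM in sh1362, 62.6 in sh490 and 77.5 in shGFP, and of BAX, a mitochondrial apoptosis effector, with 10.6 CPM in sh1362, 41.7 in sh490 and 32.04 in shGFP.

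Levels across members spanned a wide range on the per-length scale (TPM, reads per exon length scaled to a fixed total). HSP90B1 was highest, with 1819.5 TPM in sh1362, 1718 in sh490 and 2221 in shGFP, followed by HSPA5 with a mean of 1052 TPM, XBP1 with 955, ATF4 with 619.8 and PDIA4 with 537. Among the amino acid genes, SLC38A2 was highest with a mean of 495 TPM, then PSAT1 with 381 and SHMT2 with 329.6. At the low end were VLDLR with 5.11, SLC6A9 with 11.1 and ERN1 with 16.3. The value for ASNS, 13.5 TPM, is not placed in this order because most of its coding bases were not counted. HSPA5 exceeded XBP1 in sh1362 (1154 against 967 TPM) and in sh490 (902 against 724 TPM), whereas it was below XBP1 in shGFP (1098 against 1176 TPM). Together the 45 members took 1.20% of the counts in sh1362, 0.944% in sh490 and 1.09% in shGFP.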

How the data were processed

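The authors deposited 1 table of raw read counts per gene for each of the 3 libraries, with no normalization. Reads were checked with FastQC 0.11.8 and aligned with STAR 2.6.1c to GRCh38, per the submitters' processing notes. Exons were counted with featureCounts 1.6.0 on GENCODE 32, per the file headers, with no option for strand or shared genes recorded, so reads of overlapping genes were left out and strands were added. The deposited tables also give an exon length per gene, used here for TPM. Libraries were made with a SMARTer kit, per the labels' protocols.

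Counts were scaled by TMM (edgeR 4.0.16, R 4.3.3). Both hairpins were tested against shGFP with edgeR's robust quasi-likelihood F test, two-sided, after filterByExpr, with Benjamini-Hochberg adjustment over 15708 genes; the control, a single library, is assumed to vary as the hairpin libraries do. Pairs of libraries were compared by size alone in genes averaging at least 5 CPM (11634), with exact 95% counting intervals. DESeq2 1.42.0, limma 3.58.1, other filters, scalings, prior counts and folds were alternatives. The fit was tested on simulated data, where most 2-fold changes were not recovered, so a lack of calls does not show a lack of such changes. The members, roles and lists were chosen with earlier results of these data known. Full values are given for 6 set genes and the 3 members per role with the largest fold in any pair of libraries; other pathway genes are named when 2-fold apart between hairpins or the same way with both. Exon overlaps were taken from the GENCODE 32 exons on which reads were counted, and coding regions from GENCODE 29. One marker of the line is not reported here.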

Additional observations from a re-analysis of the deposited data

How the results depend on the processing

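Of 99 values recomputed under other settings, 90 stayed within 1.5 times (counts) or within the counting half-interval of a typical member (medians) and 9 moved. Some of the 90 could not move. All 45 members averaged at least 5 CPM, so a filter at 1 CPM left every value unchanged. Library scaling shifts both lists nearly alike, so it hardly alters the difference of their medians. The sign differed in 3: the mean of the amino acid genes in sh490 was 0.00069 against a median of -0.048, and 2 averages over hairpins given below. Among genes averaging at least 20 CPM, the members at least 2-fold apart numbered 3 for sh1362 and 0 for sh490 against shGFP, in place of 5 and 2, because low genes leave the list. At 1.5-fold they numbered 12 for sh1362 and 8 for sh490 against shGFP, and 14 for sh1362 over sh490, in place of 4; these are 26.7%, 17.8% and 31.1% of the members, against 26.7%, 13.3% and 20.4% of all genes. Across scalings, prior counts, filters and lists, the ER median log2 fold ran from 0.20 to 0.24 in sh1362 and from -0.28 to -0.23 in sh490. In sh1362 over sh490 the ER median ran from 0.48 to 0.56. The ER mean in place of the median was 0.33 in sh1362, -0.30 in sh490 and 0.62 in sh1362 over sh490. The amino acid median ran from 0.41 to 0.54 in sh1362, from -0.056 to -0.0047 in sh490 and from 0.37 to 0.42 in sh1362 over sh490. The amino acid mean was 0.44, 0.00069 and 0.44 in the same order. These ranges include leaving out ASNS and leaving out members sharing over 20% of their exon bases, both chosen after seeing the data. Leaving out those sharing members gave the upper ends of 0.54, 0.24 and 0.56. Averaging both hairpins, also chosen after seeing the data, gave an ER median of 0.00, with a range of -0.28 to 0.22 on leaving out one hairpin, and an amino acid median of 0.14, with a range of -0.048 to 0.41; both turn negative without sh1362. Genes called by the test numbered 58 with no filter on low counts, 3 at 5 CPM, 5 by DESeq2 and 2 by limma-voom, against 4 in edgeR, and 0 members were called in each of these; the lowest member adjusted p in edgeR was 0.337 with no filter. No paired analysis was possible because shGFP is a single library and the labels carry no replicate numbers. Taking the lowest library of each member, the smallest counts were 36 for SLC6A9 in shGFP, 40 for AGR2 in sh490, and 50 for ATF5, 61 for DDIT4 and 66 for SDF2L1 in shGFP, where depth limits precision.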
